A study of Bos taurus with 3 samples.

Results

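The cells described here are the slow-cycling stromal cells of 2 bovine cultures, one grown from adipose tissue and one from peripheral blood. They are 1825 of the 9280 cells called in these 2 libraries (1218 of 6088 from adipose tissue and 607 of 3192 from blood), and of 18561 called in the series with bone marrow included. A barcode was taken as a cell from 4439 unique molecular identifiers (UMIs, each standing for 1 captured transcript) in adipose tissue and from 7489 in blood. It was taken as stromal where TYROBP, FCER1G and AIF1, 3 genes of macrophages and other myeloid cells, gave under 0.02% of its UMIs. Within each library the stromal cells were then ordered by the mean log-scaled level of TOP2A, MKI67, NUSAP1, UBE2C, CDK1, CCNB1, H3C3 and H2AC12, genes of DNA replication and mitosis, and the lowest 20% were kept.

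Both cultures were of untreated, wild-type mesenchymal stromal cells from 1 healthy Holstein-Friesian cow in first lactation, fed with DMEM of low glucose, 30% FBS, penicillin and streptomycin and glutamine, and detached once colonies had formed. The study set cultures of several tissues from this 1 animal side by side. Each tissue gave a single library made with the 10x Genomics 3' v3.1 kit, so no difference below has a replicate or a test, and tissue, culture and library cannot be told apart. All intervals are exact 95% intervals from UMI counts and cover counting error only.

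Mesenchymal stromal cells are plastic-adherent, fibroblast-like cells that build connective tissue matrix and release growth factors and cytokines. In culture, many of them divide at any moment, and the transcripts of replication and mitosis then add to the profile. Reading the cells with the fewest such transcripts brings out the genes of matrix, signalling and metabolism by which stroma of different tissues can differ.

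The 2 libraries were of like size, with 99356868 UMIs for adipose tissue and 98016815 for blood. The chosen cells held a median of 13649 UMIs in adipose tissue (range 4456 to 60118) and 22632 in blood (range 7994 to 86768). Each cell was therefore thinned at random to 4000 UMIs, which left a median of 1669 genes in an adipose cell and 1613 in a blood cell. Mitochondrial transcripts made up a median of 2.89% of UMIs in adipose cells and 2.40% in blood cells. Of the barcodes, 4 were shared between the called cells of the libraries, and 0 between the chosen cells. Levels are given as CPM, the UMIs of a gene summed over the thinned cells of a library and scaled to a total of 1000000.

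The stromal label held for both sets. Of 16 stromal markers, 14 reached 50 CPM in each library, and VIM, the intermediate filament gene of mesenchymal cells, stood at 16480 CPM in adipose tissue and 16876 in blood. The exceptions were PDGFRB, at 5.54 and 3.29 CPM, and THY1, a surface antigen often used to define these cells, at 3.90 and 9.06 CPM. The rule removed cells with macrophage genes, so low macrophage levels are partly set by it. The 13 macrophage and monocyte markers that it did not use summed to 16.4 CPM in adipose tissue and 11.5 in blood, with 8 and 5 of them at 0. The endothelial and smooth muscle sets were uneven. The 13 endothelial markers summed to 102 CPM in adipose tissue against 5.35 in blood, and 18 adipose cells but 0 blood cells drew at least 0.1% of their UMIs from them. The 10 smooth muscle and pericyte markers summed to 59.7 CPM in adipose tissue against 147 in blood, where ACTG2 alone gave 91.0, while MYH11, DES, RGS5, KCNJ8 and MYOCD were at 0 in both. Adipocyte markers summed to 30.4 and 30.1 CPM, with ADIPOQ and LEP at 0. The haematopoietic progenitor set summed to 26.7 CPM in adipose tissue and 9.06 in blood, where GATA2 gave 23.2 and 9.06. The Schwann and neural set summed to 11.5 and 10.3 CPM, from S100B. The T cell, B cell, neutrophil, erythroid, platelet and epithelial sets each summed to under 5 CPM in both libraries.

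The lowest 20% still differed in cycling between the cultures. The last cell kept had a score of 0.295 in adipose tissue (the next was also at 0.295, and the stromal median was 0.671) and of 0.0937 in blood (next 0.0938, stromal median 0.407). No UMI of the 8 score genes was seen in 237 of 1218 adipose cells and 260 of 607 blood cells. These values belong to the rule and are no result. They bear on what follows, because 40 cell cycle genes that the score did not use still summed to 2899 CPM in adipose tissue and 1233 in blood. For this reason each result below was also read with 1 score limit for both libraries, the blood limit of 0.0937, a choice made after seeing the data. It kept 472 adipose cells with all 607 blood cells, and the 40 genes then summed to 1731 and 1238 CPM.

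Most genes were close between the cultures. Of 3066 genes with at least 50 CPM in the higher library, 75.0% lay within 1.5-fold, with a median log2 ratio (adipose tissue over blood) of 0.15. A gene was called apart at a ratio of at least 2. By that rule 106 genes (3.46% of those compared) were higher in adipose tissue and 146 (4.76%) were higher in blood, 8.22% in all. Differences of 10-fold or more were seen for 3 genes on the adipose side and 15 on the blood side. With the common score limit, 53 of the 106 and 114 of the 146 were still apart.

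**Figure D1:**
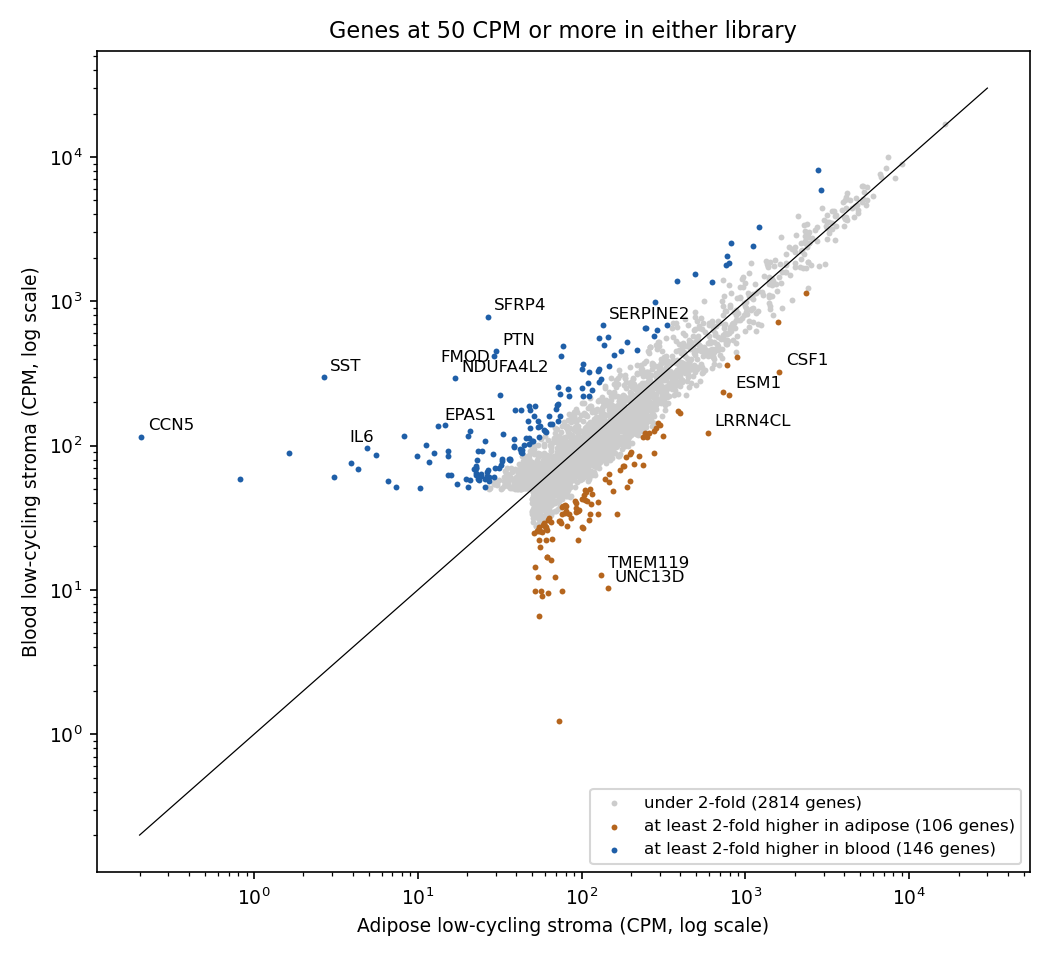
Each point is a gene with at least 50 CPM in the higher library, plotted by its CPM in the chosen adipose cells (x axis, log scale) and blood cells (y axis, log scale). Orange marks the 106 genes at least 2-fold higher in adipose tissue, blue the 146 at least 2-fold higher in blood, grey the rest; the line marks equal levels. CCN5 and SST lie farthest from the line, on the blood side, and UNC13D and TMEM119 have the largest ratios on the adipose side among genes with a symbol and at least 100 CPM.

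On the blood side the 15 largest ratios among named genes of at least 100 CPM ran from 5.08 to 562. SFRP4, a secreted antagonist of Wnt ligands, stood at 26.7 CPM in adipose tissue and 783 in blood, 29.3-fold higher (interval 24.5 to 35.3), with marrow at 23.5. The difference was spread over the blood cells, since 69.9% of them held an SFRP4 UMI against 6.57% of adipose cells. The same share among 73 macrophage-like cells of the blood library, used as a measure of free RNA (median 9802 UMIs, thinned alike), was 8.22%. PTN, the heparin-binding growth factor pleiotrophin, stood at 30.2 CPM in adipose tissue and 450 in blood, 14.9-fold higher (12.5 to 17.8), and was found in 8.95% and 53.4% of cells. FMOD, fibromodulin, a proteoglycan that binds collagen fibrils, stood at 29.4 and 419 CPM, 14.3-fold higher in blood (11.98 to 17.1), in 9.77% and 76.8% of cells. All 3 genes were thus found in most blood cells and in fewer than 1 in 10 adipose cells.

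CCN5, a matricellular protein of the CCN family, gave 1 UMI in all adipose cells and 280 in the blood cells. This was 0.205 against 115 CPM, a ratio of 562 with an interval of 100.02 to 22270. Under the alternative settings the CCN5 ratio ran from 65.0 to 7709, so its size is uncertain. Before thinning, 1.15% of adipose cells and 57.5% of blood cells held a CCN5 UMI. NDUFA4L2, a mitochondrial protein induced by hypoxia-inducible factors, stood at 16.8 CPM in adipose tissue, 295 in blood and 9.04 in marrow, 17.5-fold higher in blood. EPAS1, which encodes the hypoxia-inducible factor HIF-2 alpha, stood at 13.3 and 137 CPM, 10.2-fold higher in blood. HTRA3, a secreted serine protease, was 7.09-fold higher in blood, at 31.6 and 224 CPM. SERPINE2, a secreted inhibitor of thrombin and plasminogen activators, was 5.08-fold higher, at 135 and 685 CPM. Others on this side were EPDR1 (9.496-fold), ITGA1, the alpha-1 subunit of a collagen-binding integrin (5.98-fold), RGS3, a regulator of G-protein signalling (5.77-fold), and PRSS23, a secreted serine protease (5.55-fold).

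Another 2 of these blood genes had at least 81.3% of their UMIs in 10% of the blood cells. The same share was 60.7% for CCN5, 52.1% for RGS3 and 50.3% for EPAS1. For the other genes of the 2 paragraphs above it ran from 31.3% (FMOD) to 49.7% (ITGA1). SST, the peptide hormone somatostatin, stood at 2.67 CPM in adipose tissue, 300 in blood and 0.452 in marrow, 112-fold higher in blood (65.3 to 212). It was found in 20.3% of blood cells, 0.493% of adipose cells and 2.74% of the macrophage-like cells. The 10% of blood cells with the most SST UMIs held 86.7% of them, 24 blood cells held at least 10, and the highest held 40. Under the common score limit the ratio was 31.8. IL6, an inflammatory cytokine, stood at 8.21 and 117 CPM, 14.2-fold higher in blood (10.2 to 20.3), in 2.46% and 18.8% of cells, and 10% of blood cells held 81.3% of its UMIs. The marrow cells had more IL6 than both, at 485 CPM. Before thinning, 33.4% of blood cells held an SST UMI and 39.7% an IL6 UMI.

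On the adipose side the genes of at least 100 CPM with the largest ratios were of several kinds. UNC13D, known for its part in the release of secretory granules, stood at 145 CPM in adipose tissue, 10.3 in blood and 22.3 in marrow, 14.1-fold higher in adipose tissue (9.45 to 21.9), and was found in 37.4% and 3.46% of cells. TMEM119, a membrane protein that in other settings takes part in bone formation, stood at 132 and 12.8 CPM, 10.3-fold higher (7.21 to 15.3), in 38.3% and 4.78% of cells. CSF1, the growth factor of macrophages, stood at 1613 CPM in adipose tissue, 326 in blood and 536 in marrow, 4.95-fold higher (4.60 to 5.33). It was found in 92.6% and 52.9% of cells, and the median adipose cell held 5 CSF1 UMIs where the median blood cell held 1. The CSF1 ratio was 4.63 under the common limit. Barcodes of 10 to 100 UMIs, a profile of free RNA, held UNC13D at 129.9 CPM in the adipose library and 19.9 in blood, TMEM119 at 59.7 and 9.03, and CSF1 at 1398 and 184. The adipose library held no macrophage-like cells, so the share of cells that free RNA alone would give there was not measured.

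LRRN4CL, a membrane protein, stood at 591 CPM in adipose tissue, 123 in blood and 6.48 in marrow, 4.80-fold higher in adipose tissue. ESM1, a secreted proteoglycan best known from endothelium, stood at 792, 226 and 719 CPM in the same order, 3.51-fold higher, and was found in 80.5% of adipose cells. Without the 18 adipose cells rich in endothelial markers the ESM1 ratio was 3.37. FABP3, a fatty acid carrier, was 3.13-fold higher in adipose tissue, at 278 and 88.6 CPM. ALDH1A1, an enzyme that makes retinoic acid, was 3.20-fold higher, at 155 and 48.6 CPM. FILIP1L and HSPB7, a small heat shock protein, were 4.90-fold and 3.67-fold higher. The rest of the 15 named genes were HMGCS1, of cholesterol synthesis, and 5 of the cell cycle (MCM5, PRC1, CENPF, PCLAF and PTTG1), described with the gene lists below.

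**Figure D2:**
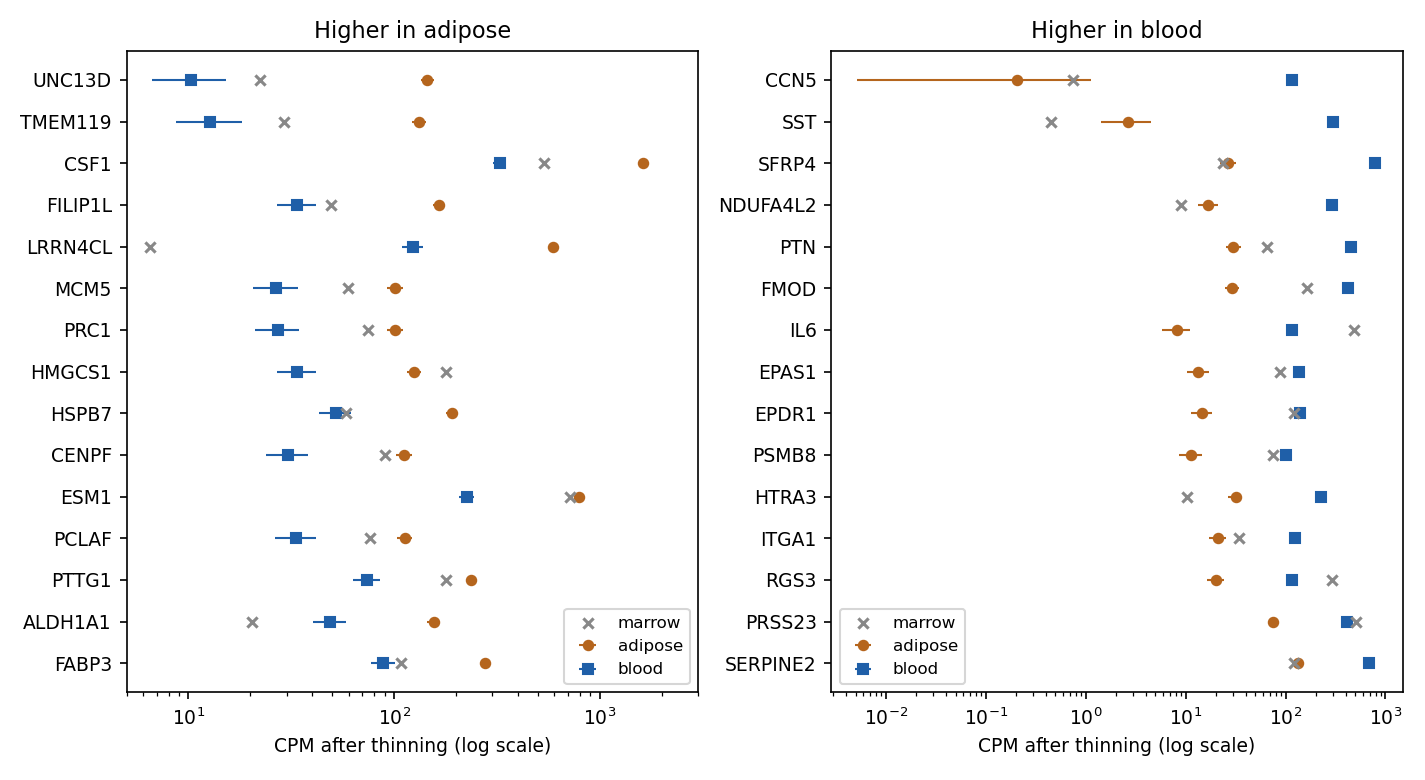
CPM after thinning (log scale) of the 15 named genes with the largest ratios in each direction, for the chosen cells of adipose tissue (orange circles), blood (blue squares) and, for reference, marrow (grey crosses); bars are exact 95% intervals for adipose tissue and blood. For CCN5 the adipose interval is wide because it rests on 1 UMI, and marrow lies near the lower library for SFRP4 and NDUFA4L2 but above both for IL6 and RGS3.

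Bone marrow cells chosen by the same rule (1659 cells) were set beside the 2 sides as a description. Of the 106 genes higher in adipose tissue, marrow lay within 2-fold of the adipose level for 70 and within 2-fold of the blood level for 54. Of the 146 genes higher in blood, marrow lay within 2-fold of the blood level for 74 and of the adipose level for 93. A gene can be within 2-fold of both.

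Gene lists were then read for each function. A list is described by its members apart among those with at least 50 CPM in the higher library, and by the median log2 ratio (adipose tissue over blood) over its members with at least 10 CPM. The same median over all 7239 genes with at least 10 CPM was 0.11, and the shares to read counts against are the 3.46% and 4.76% given above.

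Collagen genes that were apart lay mostly on the blood side. Of 13 collagen genes compared, 5 were higher in blood and 1 in adipose tissue, and the list median was -0.57. COL1A1 and COL1A2, the chains of type I collagen, stood at 2767 and 2903 CPM in adipose tissue and at 8066 and 5883 in blood, 2.92-fold and 2.03-fold higher. COL3A1, of type III collagen, stood at 798 and 1842 CPM. In all, collagen genes gave 27 UMIs in the median adipose cell (12 to 58 from percentile 10 to percentile 90) and 66 in the median blood cell (34.6 to 114.4), and 94.9% of blood cells lay above the adipose median. COL8A1, a short-chain collagen, was 6.62-fold higher in blood. COL11A1, a fibrillar collagen best known from cartilage, gave 0.821 CPM in adipose tissue, 58.9 in blood and 74.3 in marrow, 71.7-fold higher in blood. COL5A1, COL6A1, COL6A2 and COL12A1 stayed under 2-fold. COL1A2 came to 1.74-fold with the common score limit and was no longer apart.

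The one collagen on the adipose side was COL4A1, a basement membrane chain, at 51.7 CPM in adipose tissue, 14.4 in blood and 1.36 in marrow, 3.59-fold higher. Endothelial markers lay the same way, at 102 and 5.35 CPM. Without the 18 adipose cells rich in those markers COL4A1 stood at 32.7 CPM, 2.27-fold above blood and below the 50 CPM that a call needs.

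The enzymes and partners of collagen fibrils leaned the same way. Among 15 collagen-processing genes, LOXL2 (3.10-fold), LOX (2.91-fold) and CRTAP (2.01-fold) were higher in blood and 0 were higher in adipose tissue, with a median log2 ratio of -0.52. LOX and LOXL2 encode lysyl oxidases, which cross-link collagen and elastin. The hydroxylases P4HA2 and PLOD2 and the chaperone SERPINH1 were under 2-fold. CRTAP was at 1.80-fold with the common score limit. Of 6 small leucine-rich proteoglycans, FMOD, BGN (3.89-fold) and LUM (3.59-fold) were higher in blood, with a median of -1.28, while DCN, ASPN and OGN were under 2-fold. BGN stood at 145 CPM in adipose tissue and 564 in blood, and LUM at 138 and 494.

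Adhesive, elastic and basement membrane genes with calls lay on the blood side, except FBLN5. FN1, fibronectin, stood at 280 CPM in adipose tissue and 994 in blood, 3.54-fold higher. SMOC1, a calcium-binding matrix protein that modulates BMP signalling, stood at 1.64 and 89.4 CPM, 54.4-fold higher in blood, and CTHRC1 was 2.69-fold higher (1.82-fold with the common score limit). These were the 3 calls among 9 adhesive and matricellular genes, whose median was -0.82 (-0.47 with the common score limit). THBS1, TNC, SPARC and VCAN were under 2-fold. Of 6 elastic fibre genes, MFAP5 (3.91-fold) and FBLN2 (2.74-fold) were higher in blood. FBLN5 was higher in adipose tissue by 2.01-fold, which became 1.83-fold with the common score limit. It was not apart over all stromal cells either. The elastic fibre median was -0.81, and 8 of 10 genes with at least 10 CPM had ratios below 1. Of 7 basement membrane genes, NID1 (2.60-fold) and NTN4 (2.14-fold) were higher in blood, with a list median of -0.60.

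Proteolysis differed in single members. TIMP3, an inhibitor of metalloproteinases that stays bound to matrix, was 4.08-fold higher in blood, at 42.9 and 175 CPM. ADAM12 was 2.35-fold higher in blood (1.80-fold with the common score limit), and MMP2, MMP14 and TIMP2 were under 2-fold. In the plasminogen system, PLAUR, the urokinase receptor, was 2.51-fold higher in adipose tissue, and SERPINE2 was higher in blood.

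The contractile genes that were apart all lay on the blood side. Of 12 compared, 6 were higher in blood and 0 in adipose tissue, with a median log2 ratio of -1.08. ACTA2, smooth muscle actin, stood at 174 CPM in adipose tissue, 455 in blood and 167 in marrow, 2.62-fold higher, and was found in 27.5% and 53.05% of cells. MYL9, a myosin light chain, was 3.53-fold higher, ACTG2 5.99-fold, TAGLN 2.47-fold, TPM2 2.16-fold and CNN2 2.06-fold. TPM2 and CNN2 came to 1.74-fold and 1.92-fold with the common score limit. TPM1, TPM4 and CALD1 were under 2-fold, and CNN1 was at 85.8 CPM in adipose tissue and 44.5 in blood. The smooth muscle and pericyte markers moved the same way through ACTG2, while MYH11, DES and MYOCD stayed at 0.

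Calls among signalling genes lay on both sides, but the list medians were negative, towards blood. They were -1.35 for the IGF axis, -0.72 for BMP, -0.52 for Wnt and -0.41 for growth factors. For TGF-beta and activin signalling the median was -0.26. In the IGF axis 9 of 10 genes with at least 10 CPM had ratios below 1. In the Wnt list, RSPO3, an amplifier of Wnt signalling, gave 355 UMIs in adipose tissue and 3 in blood, or 72.9 and 1.24 CPM, a ratio of 59.0 (20.02 to 287), opposite in direction to SFRP4. SFRP2 was under 2-fold, at 217 and 311 CPM, while marrow had 0.301. In the BMP list, BMPR1B, a type I BMP receptor, was 3.66-fold higher in adipose tissue, and ID1, ID2 and ID3, direct targets of BMP signalling, were under 2-fold. INHBA, the activin A subunit, was 2.69-fold higher in adipose tissue, at 313 and 116 CPM. In the IGF axis, IGFBP3 was 8.29-fold higher in adipose tissue (54.6 and 6.59 CPM), whereas IGFBP5 (4.48-fold) and IGFBP4 (2.66-fold) were higher in blood. Growth factor calls all lay on the blood side: PTN, ANGPTL4 (3.17-fold) and FGF7 (2.13-fold, 1.90-fold with the common score limit), among 6 compared.

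Of 3 HOX genes compared, which are transcription factors of body position, 2 were higher in adipose tissue and 0 in blood. HOXC8 stood at 62.0 CPM in adipose tissue, 9.47 in blood and 7.99 in marrow, 6.54-fold higher in adipose tissue, and HOXC6 at 64.7, 16.1 and 20.5, 4.03-fold higher. HOXB7 stood at 58.3 and 54.4 CPM in adipose tissue and blood. Of 15 HOX genes with at least 10 CPM, 12 had ratios above 1, with a median log2 ratio of 1.44. Outside the HOX clusters, NR2F1 (7.04-fold) and PRRX2 (3.08-fold, 818 and 2520 CPM) were higher in blood, TWIST1 was higher in adipose tissue (2.01-fold), and PRRX1 and EMX2 were under 2-fold, among 6 compared. TWIST1 came to 1.86-fold without the 18 adipose cells rich in endothelial markers and to 1.68-fold over all stromal cells. TWIST1, PRRX1 and PRRX2 are factors of mesenchymal development.

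Immune genes fell on both sides, too. CXCL12, the chemokine that holds blood-forming cells in marrow, was 2.17-fold higher in adipose tissue, at 301 and 138 CPM. CXCL12 came to 1.61-fold over all stromal cells and to 1.86-fold in cells chosen for no UMI of the score genes at a first thinning. Among chemokines that attract neutrophils, CXCL2 (8.57-fold), CXCL5 (2.14-fold) and CXCL8 (2.06-fold) were higher in blood. With the common score limit CXCL5 came to 1.96-fold and CXCL8 to 1.40-fold. Macrophages make these chemokines as well, and CXCL8 was found in 100% of the macrophage-like cells, CXCL5 in 97.3% and CXCL2 in 65.8%. The part of macrophages in these 3 values was not tested. IL1RL1, the receptor of interleukin 33, stood at 729 CPM in adipose tissue, 236 in blood and 3.47 in marrow, 3.10-fold higher in adipose tissue.

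The class I presentation genes that were apart all lay on the blood side. Of 7 genes compared, 4 were higher in blood and 0 in adipose tissue, with a median log2 ratio of -1.11. B2M, the light chain of class I molecules, stood at 768 CPM in adipose tissue, 2065 in blood and 1479 in marrow, 2.69-fold higher in blood. PSMB8, a subunit of the immunoproteasome, stood at 11.3 and 100 CPM, 8.90-fold higher, PSME1, a proteasome activator, was 2.53-fold higher, and TAPBP, which loads peptides, was 2.16-fold higher. CALR and PDIA3, chaperones with wider roles, were under 2-fold. In thinned cells the list gave a median of 13 UMIs in adipose tissue and 18 in blood. Of 3 interferon-induced genes, IFI6 (7.02-fold, 7.39 and 51.9 CPM) and IFIT1 (2.07-fold) were higher in blood. Neither was apart with the common score limit, where IFI6 was at 4.17-fold but under 50 CPM and IFIT1 at 1.76-fold. Macrophages express these genes too, and 100% of the macrophage-like cells held a B2M UMI and 79.5% a PSMB8 UMI. The part of macrophages in the class I and interferon values was not tested.

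**Figure D3:**
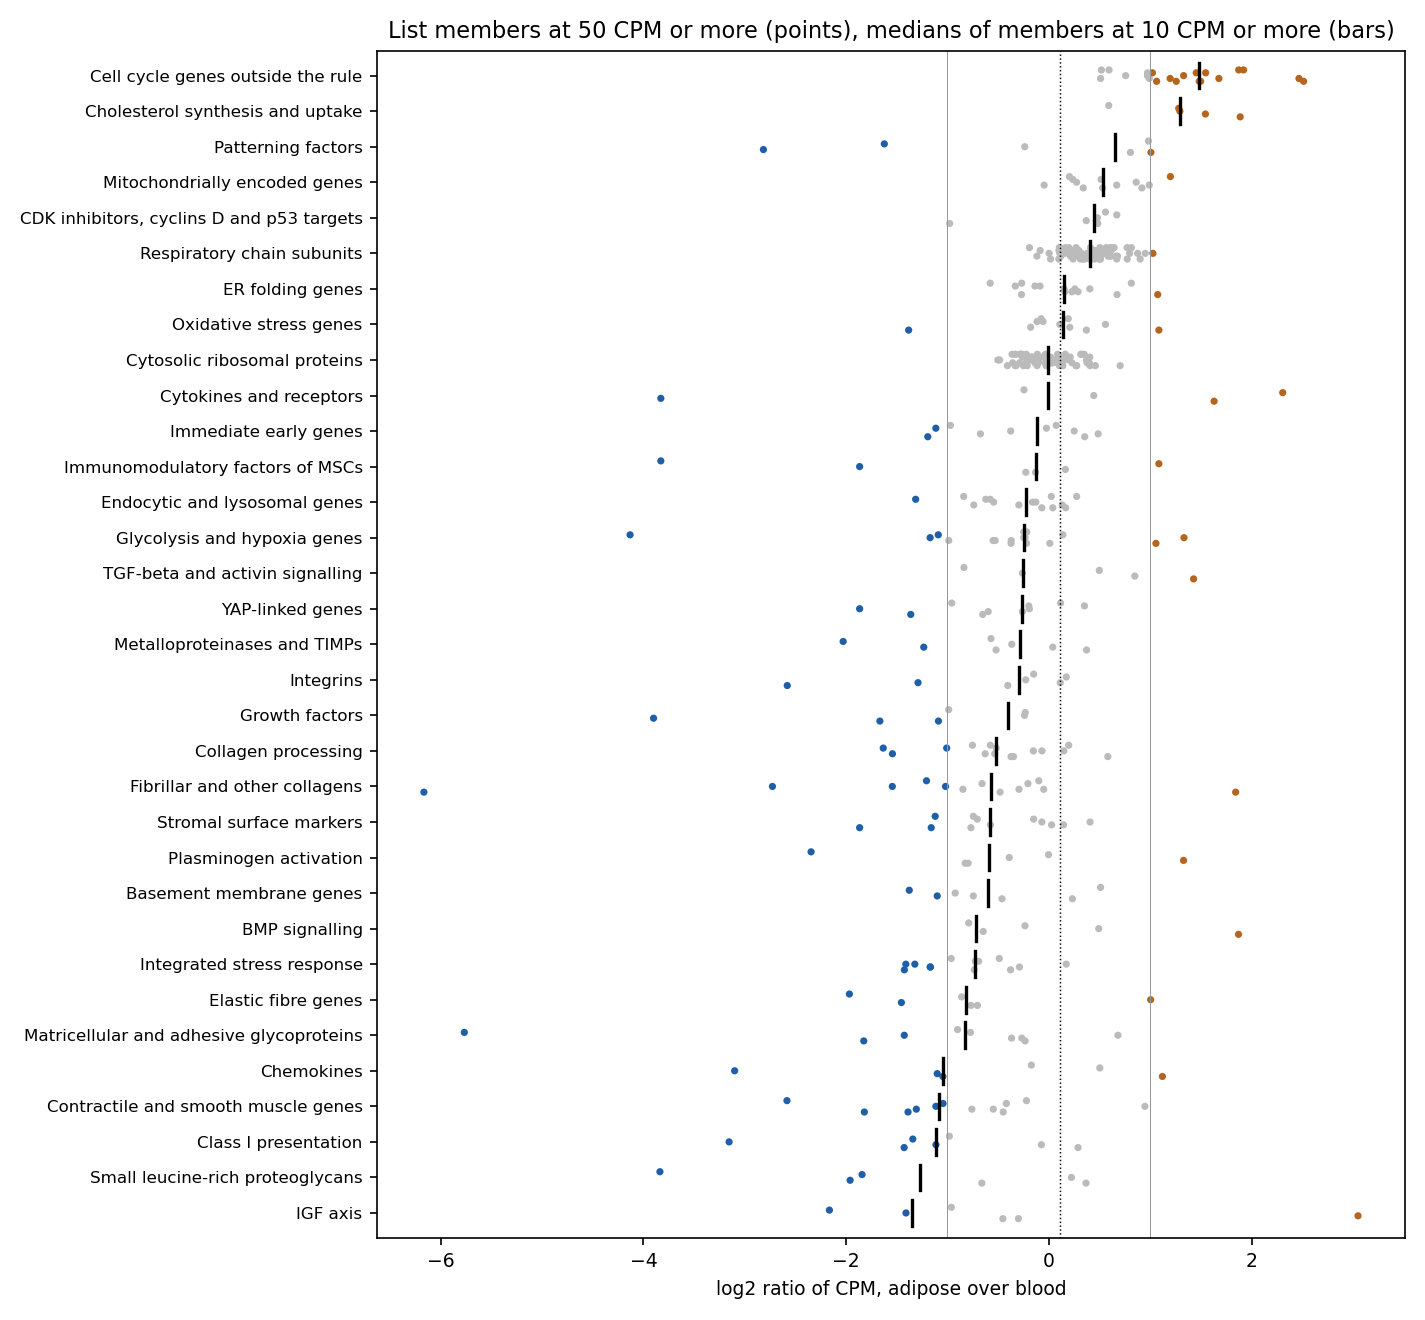
Log2 ratio of CPM, adipose tissue over blood, for list members with at least 50 CPM in the higher library (points; orange at least 2-fold higher in adipose tissue, blue at least 2-fold higher in blood) and the median of members with at least 10 CPM (black bars), for lists with at least 5 members compared. Cell cycle and cholesterol genes lie to the right of the dotted line, the median of all genes at 0.11, and the IGF axis, small leucine-rich proteoglycans, class I presentation and contractile genes lie farthest to its left.

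Adhesion and surface genes with calls were on the blood side. CDH2, N-cadherin, was 3.15-fold higher in blood, CDH13 3.07-fold and GJA1, the gap junction protein connexin 43, 2.61-fold, among 4 compared, while CDH11 was under 2-fold. Of 7 integrin genes, ITGA1 and ITGAV (2.45-fold, 1.98-fold with the common score limit) were higher in blood, and ITGB1 and ITGA5 were under 2-fold. Among 12 stromal surface markers, NT5E, the CD73 antigen, stood at 48.2 and 176 CPM, 3.65-fold higher in blood, and the syndecans SDC2 and SDC1 were 2.23-fold and 2.17-fold higher. SDC2 came to 1.91-fold with the common score limit. CD44, ENG, CD9 and CD63 were under 2-fold.

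Cholesterol genes were higher in adipose tissue. HMGCS1, of an early step of synthesis, stood at 125 CPM in adipose tissue and 33.8 in blood, 3.70-fold higher. FDPS (2.45-fold) and MSMO1 (2.43-fold), of later steps, were higher as well, and 4 of 5 genes compared were apart in this direction. All 18 genes of the list with at least 10 CPM had ratios above 1, with a median log2 ratio of 1.29. The 4 calls held with the common score limit, and the median was then 1.08. HMGCS1 was also uneven among adipose cells, where the 10% of cells with the most held 69.3% of its UMIs. In marrow HMGCS1 stood at 179 CPM, above both.

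Respiratory chain genes showed a small shift shared by nearly the whole list. Of 77 nuclear-encoded subunit genes with at least 10 CPM, 73 had ratios above 1, and the list median was 0.41, although only ATP5MK (2.04-fold) of 75 compared reached 2-fold, and it came to 1.80-fold with the common score limit. The list gave 109 UMIs in the median adipose cell (90 to 132 from percentile 10 to percentile 90) and 81 in the median blood cell (66 to 99.4), and 96.1% of adipose cells lay above the blood median. Summed, it was 27501 CPM in adipose tissue, 20562 in blood and 27300 in marrow, so blood was the low culture. The median was 0.44 with the common score limit. Of 13 mitochondrially encoded genes, 12 had ratios above 1, with a median of 0.53 and ND4L 2.30-fold higher. Cytosolic ribosomal protein genes served as a contrast, with 0 of 75 apart and a median of -0.01.

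Glycolysis and hypoxia genes leaned a little to blood, with most members under 2-fold. ALDOA, TPI1, GAPDH, PGK1, PGAM1, ENO1, PKM and LDHA were all under 2-fold. Of 25 genes of the list with at least 10 CPM, 18 had ratios below 1, and the list median was -0.25. The list gave 46 UMIs in the median adipose cell and 57 in the median blood cell, and 79.2% of blood cells lay above the adipose median. Calls in this list were HK1 (2.08-fold, 1.99-fold with the common score limit) and ADM, adrenomedullin (2.52-fold), higher in adipose tissue, and NDUFA4L2, DDIT4 (2.25-fold) and PFKL (2.13-fold), higher in blood, of 18 compared. DDIT4 and PFKL came to 1.77-fold and 1.79-fold with the common score limit.

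Genes of the integrated stress response, by which cells adjust to amino acid shortage and other stress, leaned to blood. ALDH1L2 (2.69-fold), NUPR1 (2.66-fold), VLDLR (2.50-fold), DDIT4 and PCK2 (2.25-fold) were higher in blood, 5 of 13 compared, and 20 of 21 genes with at least 10 CPM had ratios below 1, with a median of -0.72. NUPR1 came to 1.71-fold with the common score limit and the median to -0.61. ATF4, the factor that drives these genes, stood at 483 and 627 CPM, under 2-fold. Chaperones of the endoplasmic reticulum did not move with them, since 0 of 15 were higher in blood, MANF was 2.11-fold higher in adipose tissue (1.90-fold with the common score limit), and the median was 0.15.

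**Figure D4:**
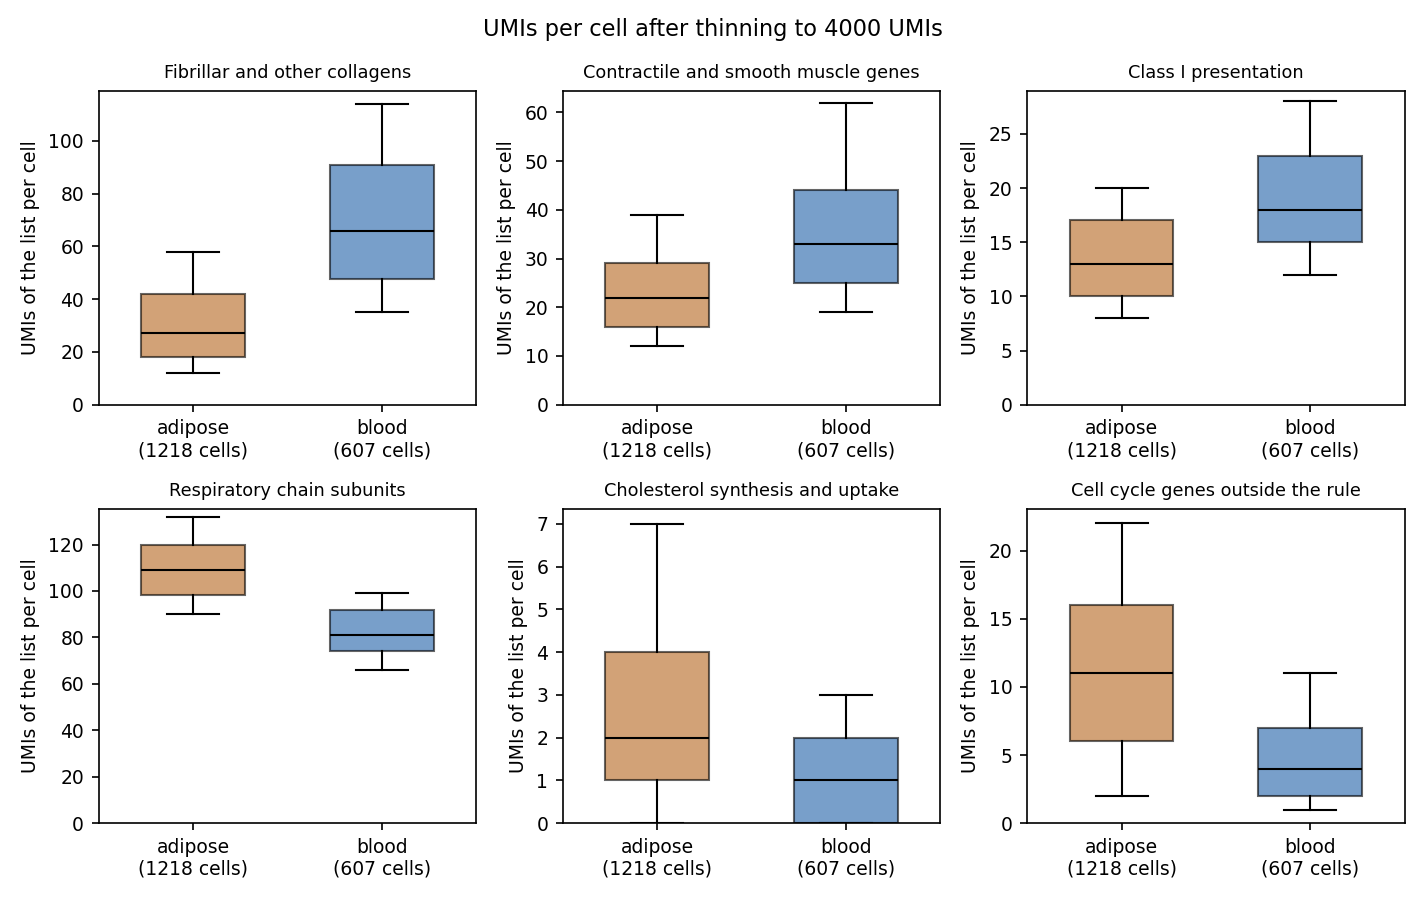
UMIs per cell summed over 6 gene lists, after thinning each cell to 4000 UMIs, in the 1218 adipose and 607 blood cells; boxes span the quartiles with the median as a line, and whiskers reach from percentile 10 to percentile 90. Blood cells lie higher for collagens (median 66 against 27), contractile genes (33 against 22) and class I genes (18 against 13), and adipose cells for respiratory chain (109 against 81), cholesterol (2 against 1) and cell cycle genes (11 against 4).

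The cell cycle itself was the list with the most calls on the adipose side. Of 22 genes of replication and mitosis outside the score, 14 were higher in adipose tissue and 0 in blood, with a median log2 ratio of 1.48. CDC20, which activates the anaphase-promoting complex, was 5.53-fold higher and the cyclin CCNA2 5.71-fold. MCM5, of the replicative helicase, was 3.79-fold higher (101 and 26.8 CPM), the kinetochore gene CENPF 3.66-fold and PTTG1, securin, 3.20-fold. PRC1, of the mitotic spindle midzone, and PCLAF, a partner of the replication clamp, stand outside the list and were 3.72-fold and 3.38-fold higher, or 1.34-fold and 2.55-fold with the common score limit. With the common score limit 13 of the 14 were no longer apart: CENPF came to 1.14-fold, TPX2 to 1.02-fold and MCM6 to 1.39-fold, RRM2 stayed at 2.01-fold, and the median was 0.52. Cyclin-dependent kinase inhibitors, D cyclins and p53 targets gave 0 calls among 7 compared. CDKN1A, an inhibitor of cyclin-dependent kinases, stood at 215 and 154 CPM, and the list median was 0.45.

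**Figure D5:**
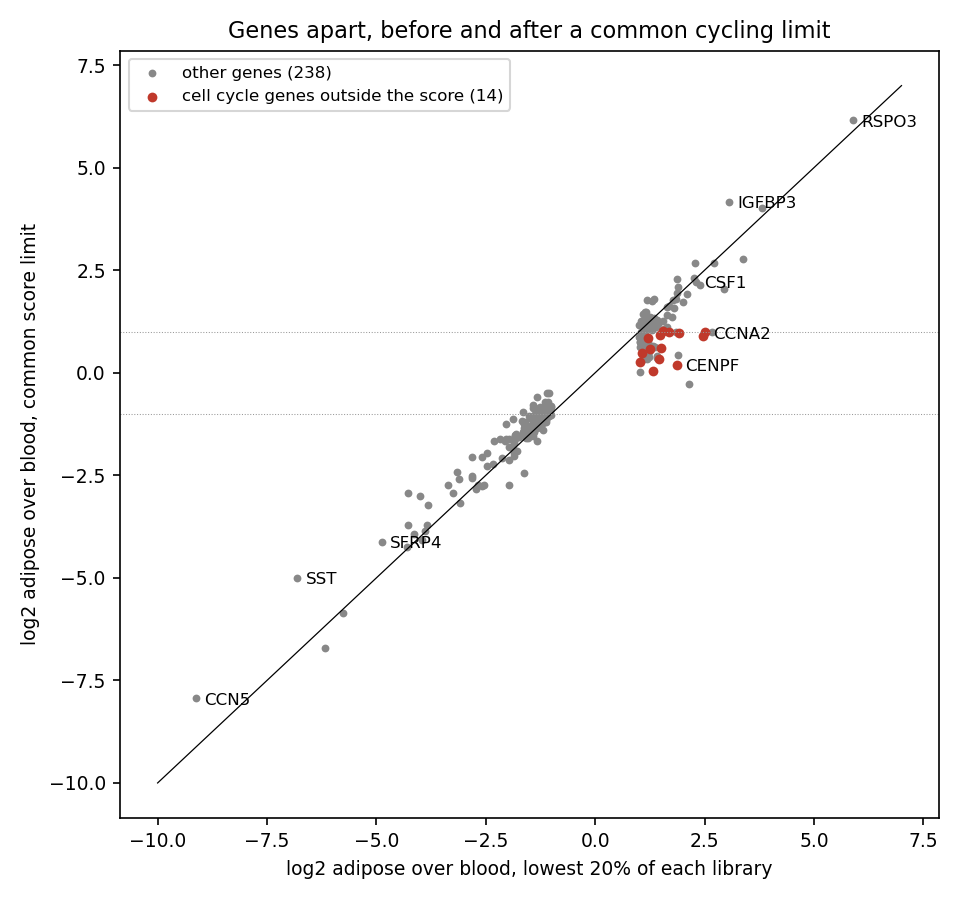
Log2 ratio of adipose tissue over blood for the 252 genes apart, with the lowest 20% of each library (x axis) and with 1 common score limit (y axis); dotted lines mark 2-fold and the diagonal marks equal ratios. The 14 cell cycle genes outside the score (red) drop to near or below the 2-fold line, while CSF1, RSPO3, IGFBP3, SST, SFRP4 and CCN5 remain far from it.

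The contrast was also read at the opposite end of each library, the 1218 adipose and 607 blood cells with the highest score. There the 40 cell cycle genes summed to 7508 CPM in adipose tissue and 7736 in blood. In these most cycling cells the adipose side held 53 calls and the blood side 109. Of the low-cycling calls, 35 (33.0% of 106) and 87 (59.6% of 146) were also apart there in the same direction, which is 66.0% and 79.8% of the calls in cycling cells, and 0 were apart in the opposite direction. Cycling cells of a library share its culture and its free RNA with the low-cycling cells, so they are not a replicate. UNC13D (10.7-fold), CSF1 (6.27-fold), TMEM119 (5.75-fold) and LRRN4CL (4.38-fold) were higher in adipose tissue in those cells as well. Other named adipose genes were closer there: HMGCS1 was at 2.15-fold, FABP3 at 1.96-fold, PCLAF at 1.49-fold, MCM5 at 1.22-fold, PTTG1 at 1.07-fold and PRC1 at 1.01-fold, and CENPF was at 1.24-fold on the blood side. NDUFA4L2 (24.1-fold), SFRP4 (14.5-fold), PTN (12.5-fold) and FMOD (10.7-fold) were higher in blood there.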

How the data were processed

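The deposited values were counts, whole numbers of UMIs for each gene in each barcode, made by the authors with Cell Ranger. The submitters' processing notes name version 6.1.1 and the bovine build ARS-UCD1.2, while the file headers name Cell Ranger 4. The annotation and the rule for reads shared by near-identical genes are not given in the sources used here, so histone, class I and CXC chemokine counts are uncertain to that degree. Cells were called by the limits given above, doublets were not removed, and no doublet caller was run. Chosen cells were thinned to 4000 UMIs without replacement (numpy 2.4.6, seed 11) and summed. Ratios carry conditional binomial intervals and shares Clopper-Pearson intervals (scipy 1.17.1), and 0 UMIs is set at a floor of 3. The calculations were tested on simulated data.

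Named genes are the 15 largest ratios a side among genes with a symbol and at least 100 CPM that are not mitochondrial, ribosomal, histone or rule genes, the members apart of 46 lists, and up to 4 further members a list. VIM, THY1 and PDGFRB are cell type markers. Members beyond that limit of 4 were named after their values were seen. Members and lists were chosen with earlier results of these data known. Macrophage-like cells were to hold at least 1% of UMIs from the 3 rule genes, which 0 cells did, and were taken instead as blood cells with at least 0.5% from 16 markers, a choice made after seeing the data. Alternatives varied thinning, score, cell limits, scaling (TMM and median-of-ratios factors, edgeR 4.0.16) and thresholds. Some list members counted above are not reported here by name.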

Additional observations from a re-analysis of the deposited data

How the results depend on the processing

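The counts of 106 genes higher in adipose tissue and 146 in blood depended on the thresholds. A minimum of 10 CPM gave 368 and 397, a minimum of 100 CPM gave 53 and 90, a ratio of at least 1.5 gave 434 and 331, and a ratio of at least 3 gave 32 and 62. The adipose count also depended on which cells were taken. It was 43 over all stromal cells (37 shared with the 106), 53 in the most cycling cells (35 shared), and, in alternatives added after seeing the data, 70 with the common score limit and 59 in cells with no score UMI at equal depth (49 shared). The blood counts in these 4 sets were 119, 109, 132 and 122. Of all calls 42.1% were higher in adipose tissue, against 26.5% over all stromal cells; the cause was not tested. TMM and median-of-ratios factors gave 34.9% and 35.5%, and a second thinning seed gave 98 and 156 calls, of which 83 and 134 were shared. CENPF was the only named ratio to turn, to 0.806 in the most cycling cells. Of the list medians under all alternatives, 644 moved by less than 0.25 on the log2 scale and 70 by more. Among lists with a main median of at least 0.5 in size, 0 changed sign. Smaller medians did so in places. That of adipogenic genes ran from -1.03 to 0.17, and that of immediate early genes from -0.34 to 0.15. Calls that held with the common score limit but not elsewhere included FDPS (1.69-fold), TAPBP (1.83-fold) and PLAUR (1.88-fold) over all stromal cells. Others were NTN4 (1.87-fold) and VLDLR (1.81-fold) in the lowest 10%. PCK2 (1.86-fold) and RRM2 (1.40-fold) were lost in cells with no score UMI at the first thinning, as was CXCL12. The settings in which TWIST1 was lost are given above. COL11A1, NID1, ANGPTL4 and VLDLR kept ratios over 2 over all stromal cells but were under 50 CPM. Without the endothelial-marker cells CRTAP, PFKL and FGF7 came to 1.88-fold, 1.88-fold and 1.95-fold. No paired analysis was possible because each tissue has 1 library without a replicate number. Genes near 50 CPM give under 1 UMI per thinned cell, so their absence from a cell cannot be read.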

Other observations

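FABP5, a carrier of fatty acids, was not apart by level, at 207 CPM in adipose tissue, 287 in blood and 193 in marrow, but it was spread differently over the cells. A FABP5 UMI was found in 13.1% of adipose cells and 49.9% of blood cells, and the 10% of cells with the most held 96.3% of its UMIs in adipose tissue and 46.7% in blood. Macrophage-like cells of the blood library held a FABP5 UMI in 98.6% of cases. The part of macrophages in the adipose pattern was not tested. Of the 13 macrophage markers that the choice of cells did not use, 5 had a UMI in the thinned adipose cells, and the 13 summed to 16.4 CPM. TYROBP, FCER1G and AIF1 were at 0 in those cells, and 0 called adipose cells reached the macrophage limit of 0.02%. FABP5 was singled out after its values were seen.

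Some genes outside the lists were also apart and were singled out after their values were seen. DPT, dermatopontin, a small matrix protein, stood at 75.7 CPM in adipose tissue, 9.88 in blood and 167 in marrow. DMRT2, a transcription factor of axial development, stood at 51.9, 9.88 and 0.301 CPM. With the common score limit DMRT2 was at 48.7 CPM in adipose tissue, 4.38-fold above blood but below the 50 CPM that a call needs. TSPO, a protein of the outer mitochondrial membrane, stood at 493, 1547 and 550 CPM, and was found in 78.2% of adipose cells and 99.3% of blood cells.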
